A study of Mus musculus with 2 samples.

Results

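The sarcomeric myosin heavy chain genes code for the motor protein of the thick filament in striated muscle, and each gene of the family gives a motor of its own speed. They were taken by gene symbol from a list of 9 genes, and 8 of them had a target among the 23930 targets of the deposited table: Myh3, Myh8, Myh2, Myh1, Myh4, Myh6, Myh7b and Myh13. Myh7, the slow isoform of the list, was not analysed here. The series profiled the cranial sutures (coronal, sagittal and lambdoid), the fibrous joints between the skull bones, of wildtype mouse pups on postnatal day 3. Its 2 bulk RNA libraries form 1 group of 1 genotype, age and batch number and carry no treatment, and they are called library 1 and library 2 after the number in their titles. The labels name suture stem cells as the cell type, but the protocol describes whole suture tissue with no sort, and the sources used here do not say whether a library holds 1 pup or a pool. Library 1 held 5663344 reads and library 2 held 15802610. Spread between the libraries may be technical in part.

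Muscle fibres switch myosin heavy chain during development. The embryonic gene Myh3 and the perinatal gene Myh8 are used before and around birth, and adult fast fibres then use Myh2 (type IIA), Myh1 (type IIX) or Myh4 (type IIB). Myh6 codes for the alpha chain of heart muscle and is also found in jaw muscles of some mammals. Myh7b codes for a slow tonic chain, and Myh13 for the chain of the extraocular and laryngeal muscles. Muscles of chewing and of the scalp attach to the skull bones that the sutures join, and suture tissue itself is connective tissue and bone.

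The genes known from developing and fast skeletal muscle are neighbours. In the GENCODE M21 annotation (build GRCm38, the same as mm10), 6 members form a cluster on the forward strand of chromosome 11 from 67078300 to 67371586, a span of 293287 bases. Their order is Myh3 (67078300 to 67102291), Myh2 (67171027 to 67197517), Myh1 (67200052 to 67224575), Myh4 (67238029 to 67260446), Myh8 (67277124 to 67308634) and Myh13 (67321658 to 67371586). The gap from Myh3 to Myh2 is 68735 bases, whereas 2534 bases separate Myh2 from Myh1. Myh6 lies on the reverse strand of chromosome 14 from 54941921 to 54966927, and Myh7b on the forward strand of chromosome 2 from 155611212 to 155634307. Where each amplicon lies within its gene was not stated in the sources used here.

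The isoform genes are close copies, which matters for a method that reads 1 short stretch per gene. The stretch of coding sequence that starts at the P-loop, the ATP-binding loop of the motor, is shown to let its likeness be seen. The first 24 bases code for the P-loop, and capitals mark bases that differ from Myh8. The sequences are the longest open reading frames of GENCODE M21 transcripts, from coding base 541 to 630 in Myh8 and from 535 to 624 in the other genes.
Myh8: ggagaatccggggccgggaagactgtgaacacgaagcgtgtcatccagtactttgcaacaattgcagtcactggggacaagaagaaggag
Myh4: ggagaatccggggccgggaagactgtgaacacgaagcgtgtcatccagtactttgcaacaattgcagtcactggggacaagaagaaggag
Myh1: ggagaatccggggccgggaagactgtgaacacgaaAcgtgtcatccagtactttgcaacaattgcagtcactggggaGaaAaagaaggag
Myh3: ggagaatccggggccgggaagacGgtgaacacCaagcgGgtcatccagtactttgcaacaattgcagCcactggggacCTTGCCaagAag

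Over these 90 bases Myh4 did not differ from Myh8, Myh1 differed at 3 bases and Myh3 at 11. Over the whole coding sequence (5814 bases in Myh8), Myh1, Myh2, Myh4 and Myh8 shared from 87.9% to 91.1% of aligned bases over 6 pairs. Myh2 and Myh1 were the closest pair, with a longest identical run of 268 bases. Myh3 and Myh8 shared 80.8% and no run over 77 bases. Myh8 and Myh13 shared 79.8%, but with an identical run of 213 bases. Pairs that include Myh6 or Myh7b shared from 68.7% to 77.9% and no run over 59 bases. Whether an amplicon also reads a second gene was not tested, so a low value beside an abundant close copy is uncertain.

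**Figure D1:**
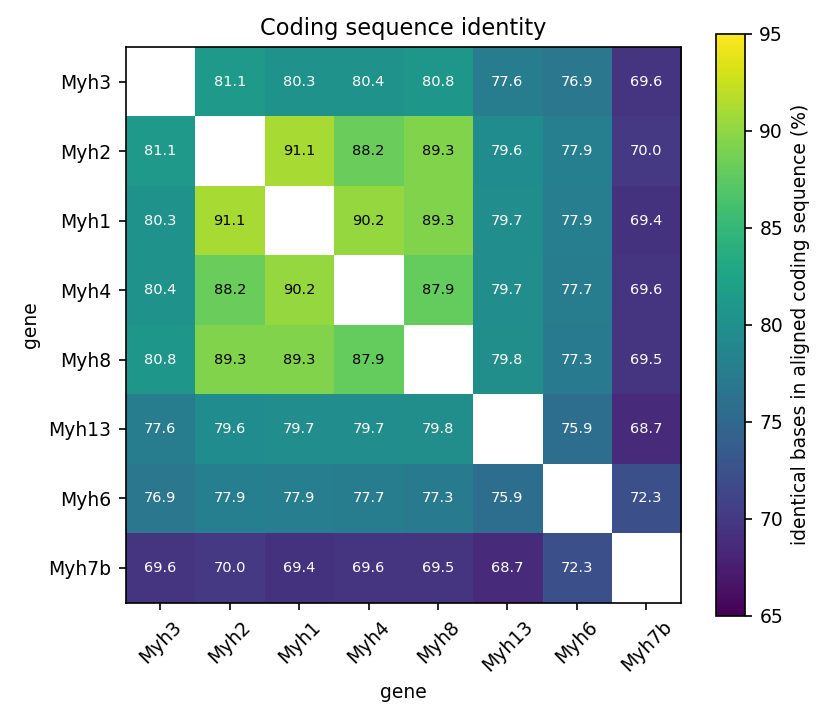
Share of identical bases in the aligned coding sequences of each pair of the 8 measured genes, in percent, as a heat map with genes on both axes. Myh1, Myh2, Myh4 and Myh8 form the block of highest identity, from 87.9% to 91.1%, and Myh7b is the most distant gene.

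Perinatal Myh8 led the family in both libraries. Values are CPM, the reads of a target per 1000000 reads of its library. Each gene is read through 1 amplicon, so its reads do not grow with gene length and no length correction was made, but the efficiency of each amplicon is unknown. Myh8 stood at 6588 CPM in library 1 and 2188 CPM in library 2, a mean of 4388 CPM ± 3111 (SD, n = 2). It ranked 11 among all targets in library 1 and 19 in library 2. Embryonic Myh3, the other developmental gene, stood at 159 CPM in library 1 and 34.0 CPM in library 2, a mean of 96.7 CPM ± 88.5 (SD, n = 2). Myh8 reads outnumbered Myh3 reads 41.4 to 1 in library 1 (exact 95% interval 38.7 to 44.2) and 64.3 to 1 in library 2 (59.0 to 70.1). Library 1 was the higher one for both developmental genes.

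Reads were assigned to all 3 adult fast genes on day 3, and their differences between the libraries did not share a direction. How far reads of Myh1, Myh2 or Myh4 come from one another or from a further close copy such as Myh8 was not tested. Myh1, the type IIX gene, was second in both libraries at 912 CPM in library 1 and 1000 CPM in library 2, a mean of 956 CPM ± 62.5 (SD, n = 2). Myh2, the type IIA gene, stood at 328 CPM in library 1 and 125 CPM in library 2. Myh4, the type IIB gene, stood at 29.1 CPM in library 1 and 76.6 CPM in library 2. Thus Myh2 was higher in library 1, Myh4 was higher in library 2, and Myh1 was nearly level.

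The slow tonic gene Myh7b, the cardiac gene Myh6 and the extraocular gene Myh13 lay near the limit of what the libraries show. Their values say nothing of Myh7, the other slow gene of the list, which was not analysed here. Myh13 gave 48 reads in library 1 (8.48 CPM, exact 95% Poisson interval 6.25 to 11.2) and 26 reads in library 2 (1.65 CPM, 1.07 to 2.41). Myh6 gave 17 reads in library 1 (3.00 CPM, 1.75 to 4.81) and 15 in library 2 (0.949 CPM, 0.531 to 1.57). Myh7b gave 16 reads in library 1 (2.83 CPM, 1.61 to 4.59) and 30 in library 2 (1.90 CPM, 1.28 to 2.71). All of these exceed the 3 reads that a target with no read could still hide (0.530 CPM in library 1, 0.190 CPM in library 2). For each Myh13 read there were 777 Myh8 reads in library 1 (586 to 1054) and 1330 in library 2 (907 to 2036), and Myh8 shares the long identical run with Myh13 given above. These intervals cover counting error only, since the panel reads carry no molecular identifiers.

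**Figure D2:**
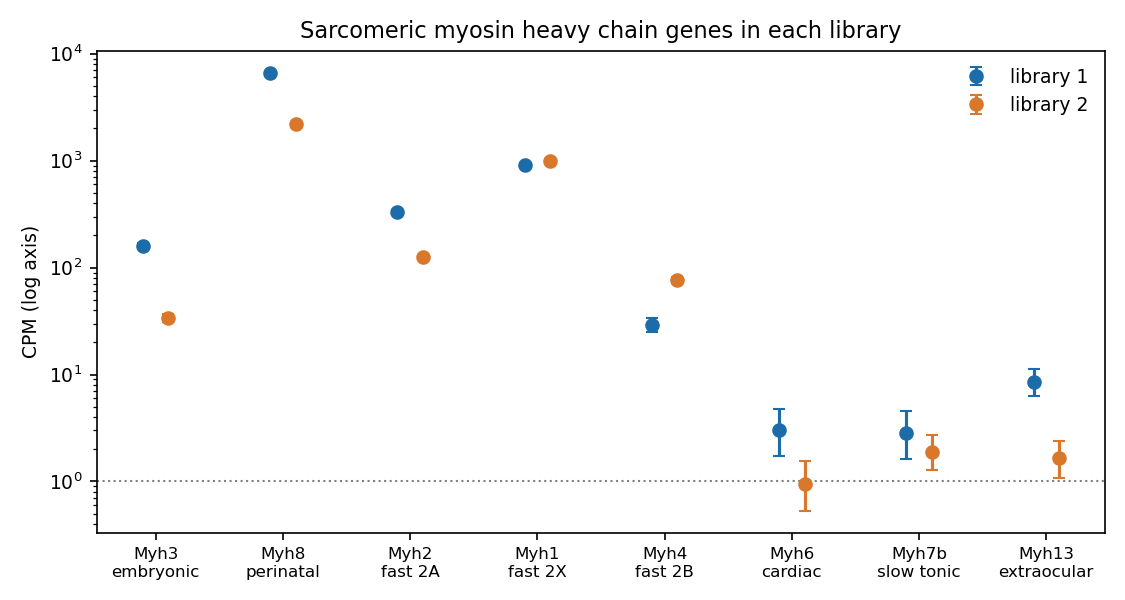
CPM of the 8 measured genes on a log axis, 1 point per library, with exact 95% Poisson intervals of the reads as bars and the detection level of 1 CPM as a dotted line. Myh8 is highest in both libraries, Myh1 is nearly level, Myh4 is higher in library 2 (76.6 against 29.1 CPM), and Myh3, Myh8, Myh2, Myh6 and Myh13 are called higher in library 1. The intervals of Myh7b overlap.

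By the mark of 1 CPM in both libraries, 7 of 8 members were detected, against 55.0% of all targets. Myh6 was the exception, at 0.949 CPM in library 2. In library 1 the order of reads was Myh8, Myh1, Myh2, Myh3, Myh4, Myh13, Myh6 and Myh7b. In library 2 it was Myh8, Myh1, Myh2, Myh4, Myh3, Myh7b, Myh13 and Myh6. The top 3 places were the same in both libraries. Myh3 and Myh4 changed places, with 5.47 Myh3 reads per Myh4 read in library 1 (exact 95% interval 4.63 to 6.49) and 0.444 in library 2 (0.401 to 0.492). Neighbours at the foot of the order were not resolved, since the ratio of Myh6 to Myh7b in library 1 was 1.06 (0.505 to 2.25). In library 2 the ratio of Myh7b to Myh13 was 1.15 (0.660 to 2.03) and that of Myh13 to Myh6 was 1.73 (0.885 to 3.52). All other neighbours had intervals that leave out 1, though amplicon efficiency is not covered by them.

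Most reads of the 8 measured genes were developmental, and the adult fast share was larger in library 2. Slow Myh7, which was not analysed here, is left out of these shares. The 8 genes together took 0.803% of the reads of library 1 (45480 reads, 8031 CPM) and 0.343% of library 2 (54175 reads, 3428 CPM). Myh8 and Myh3 together held 84.0% of these reads in library 1 (exact Clopper-Pearson 95% interval 83.7% to 84.4%) and 64.8% in library 2 (64.4% to 65.2%). Their mean share was 74.4% ± 13.6 (SD, n = 2). The adult fast genes Myh1, Myh2 and Myh4 together held 15.8% in library 1 (15.5% to 16.1%) and 35.1% in library 2 (34.7% to 35.5%). Their summed level hardly differed, at 1269 CPM in library 1 and 1202 CPM in library 2, while the summed developmental level went from 6747 to 2222 CPM. So the larger adult fast share in library 2 came with a 3.04-fold lower developmental level at a nearly equal summed adult fast level. Within that sum Myh2 was lower and Myh4 higher in library 2. The summed level of the 6 skeletal muscle markers given below was 3.07-fold lower in library 2 too.

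Within the adult fast class the gain in share belonged to Myh1 and Myh4. Myh1 held 11.4% of the summed reads in library 1 and 29.2% in library 2, and Myh4 held 0.363% and 2.24%. Myh2 held 4.08% and 3.65%. Myh8 held 82.0% and 63.8%, Myh3 1.98% and 0.993%. Set against all other members, the odds of a read being Myh8 were 2.59-fold higher in library 1 than in library 2 (exact 95% interval 2.51 to 2.67) and those of Myh3 were 2.02-fold higher (1.81 to 2.25). For Myh2 this odds ratio was 1.12 (1.05 to 1.20), for Myh1 0.311 (0.300 to 0.322) and for Myh4 0.159 (0.134 to 0.188). For Myh13 it was 2.20 (1.34 to 3.70). For Myh6 (1.35, 0.634 to 2.90) and Myh7b (0.635, 0.323 to 1.20) the interval included 1. The efficiency of a gene's own amplicon cancels in such a ratio if it was the same in both libraries. Efficiencies of the other members do not cancel, since the mix of those members differed between the libraries. An odds ratio near 1, such as that of Myh2, is thus uncertain in direction. The interval covers reads of 2 libraries and not variation between animals.

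**Figure D3:**
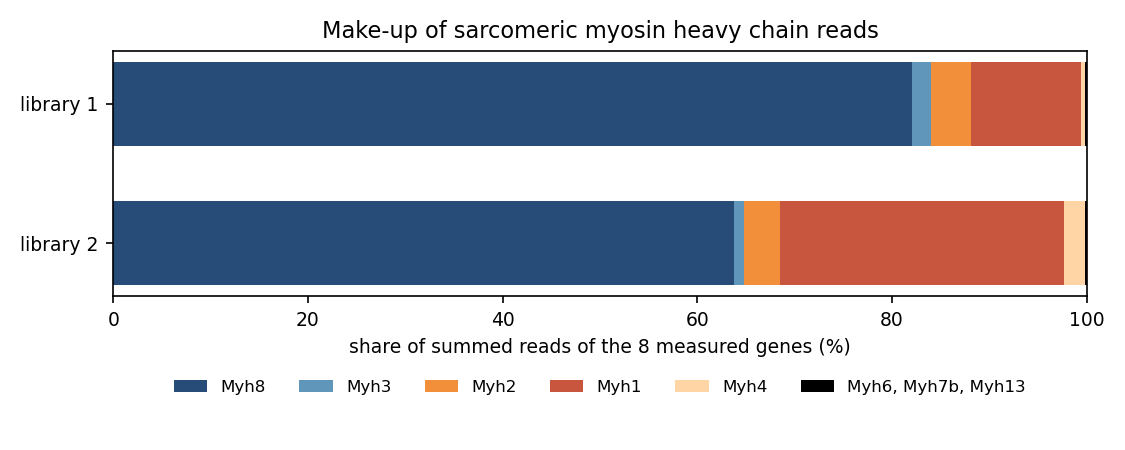
Share of each gene in the summed reads of the 8 measured genes, in percent, with 1 stacked bar per library. Myh8 fills 82.0% of library 1 and 63.8% of library 2, and Myh1 fills 11.4% and 29.2%.

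The difference between the libraries was then taken gene by gene on the whole table, as log2(CPM + 1) in library 1 minus that in library 2, a scale that understates the change of low genes. A gene at a difference of 2-fold or more was called, with no p, since each library is 1 sample. Of the members 5 were called higher in library 1, against 4.64% of all targets and 7.49% of the 14097 targets that average 1 CPM or more. They were Myh3 with a log2 difference of 2.19, Myh13 with 1.84, Myh8 with 1.59, Myh2 with 1.38 and Myh6 with 1.04. Myh4, with a log2 difference of -1.37, was the 1 member called higher in library 2, against 7.12% of all targets and 11.2% of targets that average 1 CPM or more. Myh7b (0.40) and Myh1 (-0.13) were not called. The median over the 8 members was 1.21, and over the targets that average 1 CPM or more it was -0.07. Among 9192 targets that average 10 CPM or more, the log2 difference of Myh3 lay above that of 99.7%, that of Myh8 above 98.4%, that of Myh2 above 97.3%, that of Myh1 above 45.4% and that of Myh4 above 3.23%. In read ratios, Myh3 was 4.68-fold (4.20 to 5.22), Myh8 3.01-fold (2.97 to 3.06) and Myh2 2.62-fold (2.46 to 2.80) higher in library 1, and Myh4 was 2.63-fold (2.23 to 3.11) higher in library 2. The call of Myh6 rests on few reads and was lost with a pseudocount of 5 CPM (log2 difference 0.43).

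The recovered reads were also compared by an exact two-sided binomial test, adjusted by Benjamini and Hochberg over all targets, which allows for counting error only. It called 5 of 8 members higher in library 1, against 17.1% of all targets, and 2 of 8 higher in library 2, against 20.0%. Both shares include 3918 targets with no read in either library, which the test cannot call. Myh1, at 1.10-fold higher in library 2 (1.06 to 1.13), joined Myh4 (adjusted p = 4.26e-08 for Myh1, exact binomial test). Among the low genes, the exact test gave an adjusted p of 4.21e-11 for Myh13, 0.00624 for Myh6 and 0.450 for Myh7b. With an assumed variation between animals of 20% in edgeR's exact test, the adjusted p was 2.9e-05 for Myh3, 0.00127 for Myh13, 0.00519 for Myh8, 0.0214 for Myh2 and 0.0273 for Myh4. It was 0.179 for Myh6 and 1.00 for Myh1 (edgeR). This variation was set by hand and could not be measured with 1 group of 2 libraries, so these p-values rest on the assumed value. Such tests compare 2 libraries and not conditions.

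Along the cluster, the 4 genes called higher in library 1 lie on either side of the 2 that were not. Upstream, Myh3 and Myh2 had log2 differences of 2.19 and 1.38, and downstream, Myh8 and Myh13 had 1.59 and 1.84. Myh1 and Myh4, which lie side by side in the middle with 13453 bases between them, had -0.13 and -1.37.

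**Figure D4:**
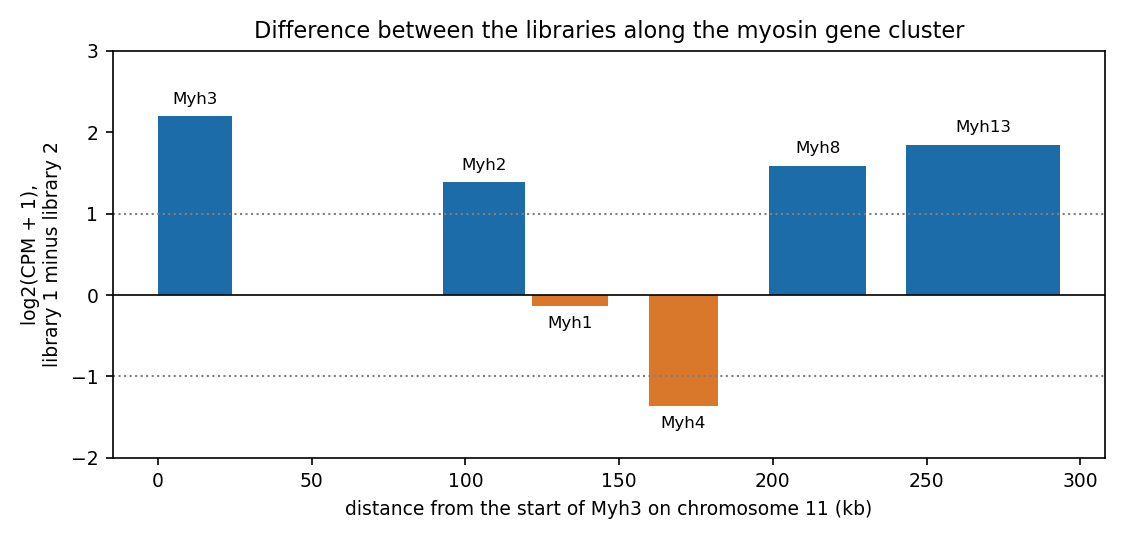
Log2 difference between the libraries (library 1 minus library 2) for the 6 genes of the chromosome 11 cluster, drawn over each gene's extent in kb from the start of Myh3, with dotted lines at 2-fold. The bars of Myh1 (-0.13) and Myh4 (-1.37) point down between genes that are at 1.38 or more.

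The promoters of both developmental genes and of Myh1 and Myh4 are shown because the first pair was higher in library 1 and the second was not. Each is the 150 bases before the RefSeq start on GRCm38.p6, forward strand (RefSeq and GENCODE place the starts of Myh1 and Myh4 differently), and capitals mark matches, on either strand, to the E-box CANNTG, the TATA motif TATAAA, the CArG box or the MEF2 motif. The E-box is the core motif of myogenic bHLH factors, and the CArG box that of serum response factor.
Myh8 (chr11:67276974-67277123): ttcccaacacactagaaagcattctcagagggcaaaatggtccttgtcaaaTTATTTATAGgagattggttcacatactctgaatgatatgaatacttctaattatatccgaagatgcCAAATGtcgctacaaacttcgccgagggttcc
Myh3 (chr11:67078150-67078299): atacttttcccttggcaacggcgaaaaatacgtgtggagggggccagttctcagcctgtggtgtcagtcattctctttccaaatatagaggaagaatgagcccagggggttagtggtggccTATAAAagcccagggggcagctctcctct
Myh1 (chr11:67199952-67200101): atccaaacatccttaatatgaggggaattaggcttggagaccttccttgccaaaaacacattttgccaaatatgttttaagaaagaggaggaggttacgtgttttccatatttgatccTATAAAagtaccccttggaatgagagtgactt
Myh4 (chr11:67237662-67237811): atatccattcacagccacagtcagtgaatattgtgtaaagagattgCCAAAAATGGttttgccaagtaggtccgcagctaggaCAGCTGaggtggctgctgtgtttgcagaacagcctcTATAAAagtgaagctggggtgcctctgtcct

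Myh3, Myh1 and Myh4 each hold a TATAAA match that begins 29, 32 and 31 bases before the annotated start. In Myh8 the match lies 96 bases before it, inside the MEF2 match. Of 32851 RefSeq promoters, 12.4% hold TATAAA within 250 bases before the start. The CArG box of Myh4 occurs in 1.47% and the MEF2 motif in 2.92% of promoters, and 66.2% hold an E-box. Beyond the printed bases, the 250 bases searched also hold a MEF2 match in Myh1 (211 bases before the start) and in Myh4 (182), TATAAA in Myh1 (208) and Myh4 (213 and 179), and an E-box in Myh3 (191) and Myh4 (221). Myh2 and Myh13, also called higher in library 1, are not printed. Their 250 searched bases hold no match in Myh2 and only E-boxes in Myh13 (214 and 192 bases before the start). The RefSeq start of Myh13 lies well inside its GENCODE extent, with the 150 bases before it at 67326953 to 67327102. Bases before the GENCODE start of Myh13 (67321658) were not searched. All of these are matches of letters, and binding was not measured.

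Most of the skeletal muscle markers were higher in library 1. The 6 skeletal muscle markers Acta1, Ckm, Tnnt3, Mylpf, Ttn and Des had a summed level of 34402 CPM in library 1 against 11197 in library 2, and 4 of the 6 were called 2-fold higher in library 1. Their log2 differences were 1.97 for the actin Acta1, 1.91 for the creatine kinase Ckm, 2.40 for the fast troponin T gene Tnnt3, 1.35 for the fast light chain Mylpf, 0.21 for titin (Ttn) and 0.39 for desmin (Des). The bone markers went the other way, with 2 of 4, Sp7 (-1.02) and Ibsp (-1.18), called higher in library 2. Dmp1 (-0.51) and Col1a1 (-0.16) were not called. Of all targets that average 1 CPM or more, 7.49% were called higher in library 1 and 11.2% higher in library 2. In bulk tissue a smaller number of muscle cells and less RNA per cell cannot be told apart, and the part of muscle content in the myosin differences was not tested. Relative to the geometric mean of the 6 muscle markers, no member was called higher in library 1, and Myh1 and Myh4 were called higher in library 2. On that scale the log2 difference was 0.84 for Myh3, 0.78 for Myh13, 0.22 for Myh8, 0.18 for Myh6 and 0.02 for Myh2. It was -0.56 for Myh7b, whose sign thus flipped, -1.50 for Myh1 and -2.70 for Myh4. The median of targets that average 1 CPM or more moved from -0.07 to -1.31 on that scale. That median is itself past the 2-fold line, so a call of higher in library 2 is common there and not particular to the members. Myh2 and Myh8 thus lay close to the muscle markers and Myh1 close to the median target, while Myh4 lay below both.

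Most measured genes of the fast and of the slow fibre lists were called higher in library 1. Among 9 measured fast fibre genes, 7 were called, all higher in library 1, against 7.49% of targets that average 1 CPM or more. Their median log2 difference was 1.38. Tnnt3 and Mylpf are also among the skeletal muscle markers, so these lists overlap. The fast light chain gene Mylpf stood at 13300 CPM in library 1 and 5222 CPM in library 2, and Myl1, the essential fast light chain, at 3328 and 1292 CPM. The troponins Tnnt3 and Tnni2 had log2 differences of 2.40 and 1.71, the calcium pump Atp2a1 1.61, the calcium buffers Casq1 and Pvalb 1.75 and 1.38. The fast Z-disc gene Actn3 (0.34) and the fast myosin binding protein gene Mybpc2 (0.09) were not called, nor was adult fast Myh1.

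The slow fibre genes had a median log2 difference of 1.51, and 7 of 9 were called, again all higher in library 1. The share of targets that average 1 CPM or more so called was 7.49%. Myl2, the slow regulatory light chain, stood at 272 CPM in library 1 and 73.1 CPM in library 2. Its partner Myl3 stood at 87.9 and 31.6 CPM. Log2 differences were 2.61 for the slow troponin I gene Tnni1, 1.42 for Tnnt1, 1.75 for Casq2, 1.51 for Mybpc1 and 1.94 for Myoz2. The troponin C gene Tnnc1 (0.90) and the calcium pump Atp2a2 (0.02), which many cell types use, were not called. Reads of the slow regulatory light chain thus far outnumbered those of Myh7b in both libraries.

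Of 10 genes of embryonic and neonatal muscle, 6 were called higher in library 1 and 1 in library 2. The shares among targets that average 1 CPM or more were 7.49% and 11.2%. The developmental actin Actc1 stood at 897 CPM in library 1 and 174 CPM in library 2, a log2 difference of 2.36 beside 2.19 for Myh3. Chrng, the fetal subunit of the acetylcholine receptor, had 1.49, the cardiac and embryonic troponin Tnnt2 1.22, and the myogenic factors Myog, Myod1 and Myf5 1.43, 1.17 and 1.86. The fusion gene Mymk (0.96) and the satellite cell factor Pax7 (-0.18) were not called. Ncam1, which nerve cells also express, was the gene called higher in library 2 (-1.04). Myl4, the embryonic and atrial light chain, gave no read in library 1 and 3 reads in library 2, and was thus not detectable.

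Partners of the thick filament fell into a called and an uncalled part. Of 8 genes, Mybpc1 (1.51), Myom3 (1.58) and Myom1 (1.16) were called higher in library 1 by their log2 differences. Among targets that average 1 CPM or more, 7.49% were so called. Mybph (0.45), Ttn (0.21), Mybpc2 (0.09) and Myom2 (-0.30) were not called. Myom2, the M-band gene of adult fast fibres, stood at 167 CPM in library 1 and 205 CPM in library 2. Of these 8 genes it alone had a difference of the sign of Myh1 and Myh4, and the exact binomial test called it higher in library 2.

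Genes that fold myosin or mark it for breakdown were called higher in library 1 in 4 of 6 cases. Among targets that average 1 CPM or more this share was 7.49%. Unc45b, the myosin chaperone, stood at 105 CPM in library 1 and 25.5 CPM in library 2 (log2 difference 1.99), and Smyd1, a methyltransferase of sarcomere assembly, at 99.9 and 35.8 CPM (1.46). The sarcomeric ubiquitin ligases Trim55 (2.64) and Trim63 (1.31) were also called, whereas Trim54 (0.95) and the ligase Fbxo32 (-0.51) were not.

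Of 13 regulators known to act on myosin isoform genes, none was called in either direction by the 2-fold rule, which calls 7.49% of targets that average 1 CPM or more higher in library 1 and 11.2% higher in library 2. At these shares a count of 0 of 13 says little. Their median log2 difference was 0.01, with members on both sides of 0. Nfix, a factor of the fetal muscle programme, was highest at 773 CPM in library 1 and 875 CPM in library 2, followed by Nfatc1 at 237 and 269 CPM and Sox6, a repressor of slow fibre genes, at 173 and 175 CPM. Nfatc1 is also a factor of osteoclasts, the cells that break down bone. By the binomial reads test, 3 of the 13 regulators were higher in library 1 and 3 in library 2. The shares over all targets were 17.1% and 20.0%, but these include targets with no read, which the test cannot call.

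**Figure D5:**
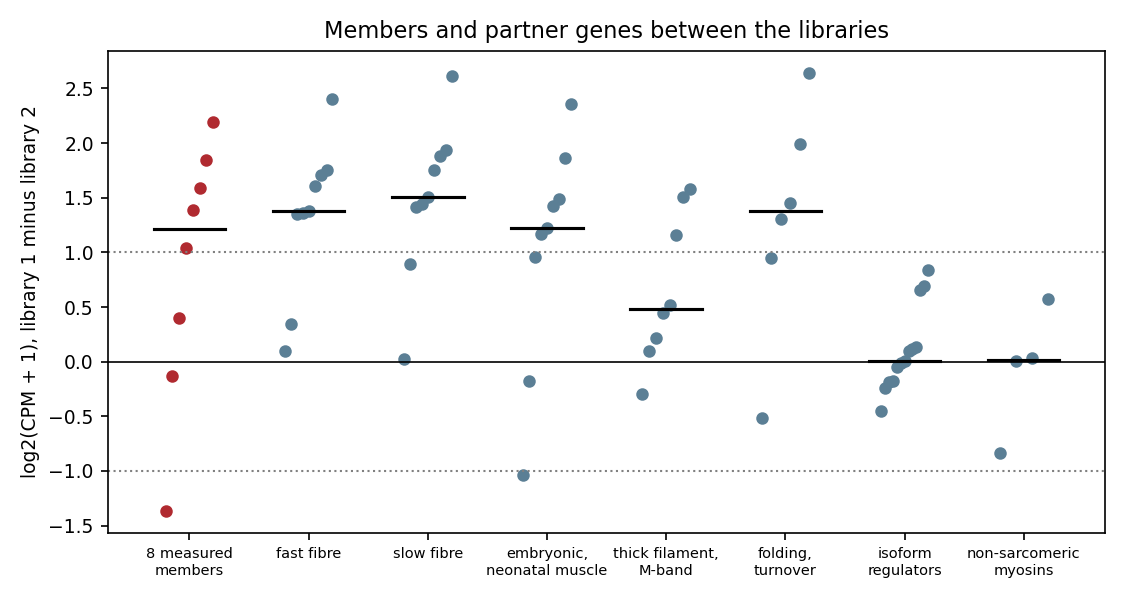
Log2 difference between the libraries (library 1 minus library 2) for the 8 measured members and for partner genes that average 1 CPM or more, 1 point per gene, with the median of each list as a bar and dotted lines at 2-fold. Fast, slow and folding genes have medians of 1.38, 1.51 and 1.38, while isoform regulators lie around 0.01.

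Heart muscle markers were at or near 0. Of 9 markers, 3 reached 1 CPM in both libraries (Nppa, Tnni3 and Ryr2), and the highest value was 3.00 CPM. Their summed level was 8.83 CPM in library 1 against 6.20 in library 2. Nkx2-5 gave no read in either library, Myl7 gave 0 and 2 reads, Tbx20 1 and 2, Tbx5 0 and 8, Nppb 3 and 7 and Mybpc3 2 and 20. Tnni3, at 3.00 CPM in library 1 and 1.08 CPM in library 2, had levels close to those of Myh6.

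Among head muscle factors, Tbx1 stood at 21.0 CPM in library 1 and 11.3 CPM in library 2. Isl1 gave 7 and 27 reads, Msc 0 and 2 and Tcf21 0 and 1. None of the 5 factors in this list was called by the 2-fold rule. Among targets that average 1 CPM or more, that rule called 7.49% higher in library 1 and 11.2% higher in library 2. The lack of a call among so few genes thus says little.

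Among 1633 genes that average 100 CPM or more, those whose log2 difference lay nearest to that of Myh8 (1.59) were Srl (1.59), Synpo2 (1.58), Atp2a1 (1.61), S100a8 (1.62) and Klhdc2 (1.55). Srl and Atp2a1 code for proteins of the muscle calcium store, while S100a8 is a neutrophil gene. The measure rests on 2 libraries, and 16 genes lay within 0.1 of Myh8, so it says little of likeness. In this set 32 genes had a higher log2 difference than Myh8.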

How the data were processed

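Total RNA of 2 samples of cranial suture was turned into libraries with the Ion AmpliSeq mouse transcriptome panel, per the labels' protocols. The authors deposited CPM, reads per 1000000 of a library, for 23930 targets. The build was mm10, per the submitters' processing notes, and no source used here names the aligner, counter or filters. Whole reads were recovered from the steps of the CPM values (100% within 0.01 of a read): 5663344 in library 1 and 15802610 in library 2. Dates in place of 27 symbols were restored from target names, and Mymk was read as Tmem8c.

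Differences used log2(CPM + 1) on the whole table with a 2-fold rule. With 1 group, no test between conditions was possible. Exact Poisson, Clopper-Pearson and binomial methods (scipy 1.17.1) cover counting error only, and edgeR 4.0.16 was an alternative. The binomial test was checked on simulated reads that vary by counting error only, so that check does not cover variation between animals. Coding sequences were aligned with Biopython 1.88. Alternatives were other pseudocounts, scalings (TMM, DESeq2 1.42.0 size factors, muscle markers), filters, folds and either library alone.

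The members and 13 partner lists (87 genes, 79 with a target) were chosen with earlier results of these data known. Some lists share genes, so their counts are not independent. The thick filament list shares Ttn with the muscle markers, Mybpc1 with the slow fibre list and Mybpc2 with the fast fibre list. Named genes were all members, all genes of lists of 10 or fewer, the 3 highest of longer lists, and the 5 genes nearest to Myh8. Values of 2 list genes are not reported here. Of lists with no measured gene, the microRNAs within myosin genes were not analysed here, nor was Myh16.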

Additional observations from a re-analysis of the deposited data

How the results depend on the processing

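Other scalings by TMM or DESeq2 size factors and a pseudocount of 0.5 CPM left all 8 members on the same side of the 2-fold rule with the same sign, and a pseudocount of 5 CPM did so for 7. Relative to the skeletal muscle markers, the number of members called higher in library 1 went from 5 to 0. The number called higher in library 2 went from 1 to 2. That scale moves the log2 ratio of every target by the same 1.37 toward library 2. The median of targets that average 1 CPM or more lay at -1.31 there, past the 2-fold line. A fold of 1.5 or a minimum mean of 1 CPM kept both numbers. With edgeR's exact test and an assumed coefficient of variation of 0.2, 4 members were higher in library 1 in place of 5 by the binomial test. In library 2, 1 member was higher in place of 2. The mean share of Myh8 and Myh3 in the summed reads, 74.4%, was 73.6% with the reads of both libraries pooled and 74.5% over the chromosome 11 genes alone. It was 84.0% from library 1 and 64.8% from library 2 alone. More than 3 reads were found for 8 members in both libraries, and 10 CPM or more for 5. Depth limits Myh6, Myh7b and Myh13, each with 48 reads or fewer per library. With 1 group, no replicate block applies.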

Other observations

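Myosin heavy chains outside the sarcomere were read in the same libraries. Myh9, a non-muscle chain of most cells, stood at 459 CPM in library 1 and 818 CPM in library 2, and Myh10, another non-muscle chain, at 156 and 104 CPM. Myh11, the smooth muscle chain, was level at 22.1 and 22.0 CPM, and Myh14 at 5.65 and 5.51 CPM. None of these 4 genes was called by the 2-fold rule, and their median log2 difference was 0.02. With 7.49% of targets that average 1 CPM or more called higher in library 1 and 11.2% in library 2, this says little. The summed level of these 4 genes was 643 CPM in library 1 against 950 in library 2, below the 8 sarcomeric genes in both. Myh15, a further striated chain, gave 2 reads in library 1 and none in library 2, and was not detectable at this depth.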
